A study of Schizosaccharomyces pombe with 4 samples.

Results

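The histone genes of the fission yeast *Schizosaccharomyces pombe* were followed in nascent and total RNA. The family was taken by gene name from the annotation: *hta1* and *hta2* (H2A), *htb1* (H2B), *hht1*, *hht2* and *hht3* (H3), *hhf1*, *hhf2* and *hhf3* (H4), and *pht1* (the variant H2A.Z). All 10 were found, of 5129 protein-coding genes and 9111 annotated units in all. The 9 genes other than *pht1* are called core histone genes here.

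Nascent RNA was profiled by NET-seq, which sequences the 3′ parts of the transcripts held by RNA polymerase II (RNAPII). IP libraries (n = 2) were made from nascent RNA recovered with FLAG-tagged RNAPII, and input libraries (n = 2) from total RNA, with the same library steps but without the pulldown. All 4 came from exponentially growing cultures of strain YAM2492 (*rpb3-flag*), and the same biological replicates, numbered 1 and 2, gave IP and input. This strain carries the tag on the RNAPII subunit Rpb3 and is the wild type of the study, so no untagged or mutant strain stands beside it, and with unsynchronized cells no cell cycle stage can be read from these libraries.

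Core histones H2A, H2B, H3 and H4 form the octamer that DNA is wrapped around in the nucleosome, and H2A.Z replaces H2A in some nucleosomes, in many organisms next to gene starts. Cells need new core histones as they copy their DNA, and many core histone mRNAs peak in S phase, whereas H2A.Z can be laid down outside it. In *S. pombe* each H3 gene lies head to head with an H4 gene, *hta1* lies head to head with *htb1*, and *hta2* stands alone. Upstream of the core genes lies a conserved element with the hexamer AACCCT. The GATA-type factor Ams2 and the Myb-domain protein Teb1 are known to act on core histone genes through it, though not necessarily on each of them.

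Signal is given as RPKM, which scales reads to annotated length and library size, on the authors' normalization. The IP libraries came to 7100000 and 7117477 reads, and the input libraries to 9082385 and 9823089 reads. Of these totals, tRNA reads took 5.59% and 5.79% in IP, against 94.5% and 89.9% in input, which left the median protein-coding gene with 369 and 338 reads in IP but 17 and 35 reads in input. The histone genes together had 20485 and 22284 reads in IP (0.289% and 0.313% of the total), against 1169 and 3055 reads in input (0.0129% and 0.0311%). Single genes therefore had 411 to 7133 reads in an IP library but only 15 to 857 in an input library, and intervals given below cover counting error only.

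The element upstream of the core genes was looked up in the RefSeq genome ASM294v3, in the 250 bases before and 50 bases after each gene's annotated start, on both strands. That start is the 5′ end of the RefSeq gene and not the coding start, except where the annotation begins at the coding start, as for *hhf3*. All 9 core genes had AACCCT as 2 copies in direct tandem, whereas *pht1* had no AACCCT at all. Of 5112 promoter windows in the genome, 496 (9.70%) held at least 1 AACCCT and 20 (0.391%) held the tandem. The 9 genes share 5 elements, because the head-to-head partners read the same element in opposite directions. The elements are shown with 40 bases on each side, tandem in capitals, each 5′ to 3′ on the strand where it reads AACCCT; they lie at I:4699612-4699703 (+), II:1365020-1365111 (−), II:3529587-3529678 (+), III:1412260-1412351 (−) and I:4053331-4053422 (−).
*hhf1*-*hht1*: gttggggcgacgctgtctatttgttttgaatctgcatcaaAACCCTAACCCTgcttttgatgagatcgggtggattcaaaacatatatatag
*hhf2*-*hht2*: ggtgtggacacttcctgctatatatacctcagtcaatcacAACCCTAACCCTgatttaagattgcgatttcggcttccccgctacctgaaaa
*hht3*-*hhf3*: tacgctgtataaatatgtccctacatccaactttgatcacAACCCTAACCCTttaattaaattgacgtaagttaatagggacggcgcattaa
*hta1*-*htb1*: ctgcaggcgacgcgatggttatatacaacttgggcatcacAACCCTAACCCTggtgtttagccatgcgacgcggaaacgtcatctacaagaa
*hta2*: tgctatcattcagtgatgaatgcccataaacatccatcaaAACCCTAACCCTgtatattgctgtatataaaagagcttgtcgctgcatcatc

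In all 5 elements the 4 bases ATCA, followed by 1 base that differed, came just before the tandem, and beyond that base the flanks were not shared by all. The tandem ended 47 to 128 bases before the RefSeq start of the gene concerned: nearest for *htb1* and *hht2* (47 each), *hta2* and *hhf1* (52 each), *hht3* (61), *hht1* (68) and *hhf2* (75), and farthest for *hta1* (118) and *hhf3* (128). RPKM below rests on the authors' annotation, whose starts differ. There *hht2* begins at II:1365041, *hht3* at II:3529657 and *hta2* at I:4053397, so by these coordinates the tandem lies inside each of these annotated genes. Along the strand shown, the tandem reads toward *hht1*, *hhf2*, *hhf3*, *hta1* and *hta2*. TATAAA was present for 5 of the 10 genes (*hta2*, *htb1*, *hht1*, *hht3* and *hhf3*) and in 48.1% of all windows, and the letters GATA for 9 of the 10 and in 92.8% of all windows. A match of letters is a description of the window and shows no binding.

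The coding sequences of the H3 copies, and those of the H4 copies, are near-identical, which bears on every count below because the authors kept reads with 1 mapping place only. Over 411 bases, *hht1* and *hht2* differed at 46 positions, *hht1* and *hht3* at 30, and *hht2* and *hht3* at 48. Over 312 bases, *hhf1* and *hhf2* differed at 27 positions, *hhf1* and *hhf3* at 21, and *hhf2* and *hhf3* at 27. No difference changed the encoded protein, so the 3 H3 genes encode 1 protein of 136 residues and the 3 H4 genes 1 protein of 103 residues. The stretch of coding bases 88 to 147 shows what sets the H3 copies apart, and the last 60 bases, 253 to 312, do so for H4, with bases that differ in any copy in capitals.
*hht1*: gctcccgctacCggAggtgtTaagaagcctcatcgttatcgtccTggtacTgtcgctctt
*hht2*: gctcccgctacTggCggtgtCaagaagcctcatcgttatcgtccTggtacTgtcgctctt
*hht3*: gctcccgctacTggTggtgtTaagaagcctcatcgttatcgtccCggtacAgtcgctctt
*hhf1*: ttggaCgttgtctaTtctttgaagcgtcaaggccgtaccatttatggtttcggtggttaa
*hhf2*: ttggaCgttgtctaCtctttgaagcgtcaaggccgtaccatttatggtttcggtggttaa
*hhf3*: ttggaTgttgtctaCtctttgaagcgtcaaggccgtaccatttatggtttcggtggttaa

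How much of each gene such reads can reach was computed as the share of 50-nt windows with no second place in the genome at up to 2 mismatches, the authors' setting. Over the coding sequence (CDS) this share was 40.9% for *hht1*, 53.3% for *hht3*, 70.3% for *hhf2*, 75.3% for *hhf3*, 81.7% for *hhf1* and 84.5% for *hht2*. It was higher for the H2A genes, at 91.6% for *hta2* and 91.7% for *hta1*, and 100% for *htb1* and *pht1*. Outside the CDS every window of the 10 genes was unique, so over the whole annotated gene the share ran from 73.9% in *hht1* and 79.1% in *hht3* up to 100%. In the genome, 94.8% of 5113 genes were unique in all windows tested and 3.76% were under 90%, which shows how far *hht1*, *hht3*, *hhf2* and *hhf3* stand from an ordinary gene.

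Of the single histone genes, the H2B gene had the highest nascent signal. *htb1* (SPCC622.09, III:1412387-1413677, + strand), the only H2B gene, had 743 and 776 RPKM in IP, against 26.7 and 67.6 RPKM in input. Its rank among protein-coding genes was 23 and 22 in IP and 174 and 141 in input. Across *htb1* and the other 9 genes the IP values of a gene lay above its input values in all libraries, with no overlap. In these bulk cultures a larger share of cells making histone RNA and more RNA per such cell cannot be told apart.

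The H2A genes came next. *hta2* (SPAC19G12.06c, I:4052446-4053397, − strand) had 393 and 450 RPKM in IP, against 15.8 and 41.0 RPKM in input. *hta1* (SPCC622.08c, III:1411144-1412214, − strand) had 352 and 388 RPKM in IP, against 19.1 and 43.7 RPKM in input. The IP values of *hta2* lay just above those of *hta1*, whereas in input the 2 genes overlapped and *hta1* had the higher mean. H2A.Z was far lower than H2A: *pht1* (SPBC11B10.10c, II:1502203-1503468, − strand) had 51.4 and 45.6 RPKM in IP, against 1.30 and 3.70 RPKM in input, from 15 and 46 input reads.

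Among the H3 genes, *hht2* (SPBC8D2.04, II:1365041-1365818, + strand) had the highest level over the whole annotation, with 299 and 308 RPKM in IP, against 12.3 and 30.8 RPKM in input. *hht1* (SPAC1834.04, I:4699691-4700560, + strand) had 220 and 260 RPKM in IP, against 15.2 and 36.7 RPKM in input. *hht3* (SPBC1105.11c, II:3528800-3529657, − strand) had 233 and 244 RPKM in IP, against 10.8 and 24.2 RPKM in input. Thus *hht2* was above both other H3 copies in IP, while *hht1* and *hht3* overlapped, and in input the 3 ranges overlapped with *hht1* highest in both replicates.

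Among the H4 genes, *hhf1* (SPAC1834.03c, I:4698773-4699544, − strand) had 255.6 and 338 RPKM in IP, against 16.3 and 30.6 RPKM in input. *hhf2* (SPBC8D2.03c, II:1364189-1365043, − strand) had 218 and 204 RPKM in IP, against 7.08 and 19.1 RPKM in input. *hhf3* (SPBC1105.12, II:3529657-3530388, + strand), the lowest core gene in IP, had 140 and 159 RPKM in IP, against 8.72 and 22.8 RPKM in input. In IP the order *hhf1*, *hhf2*, *hhf3* held without overlap, whereas in input *hhf2* and *hhf3* lay within counting error of each other. Each of the 10 genes has 1 CDS segment in the annotation, so no intron splits a coding sequence.

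**Figure D1:**
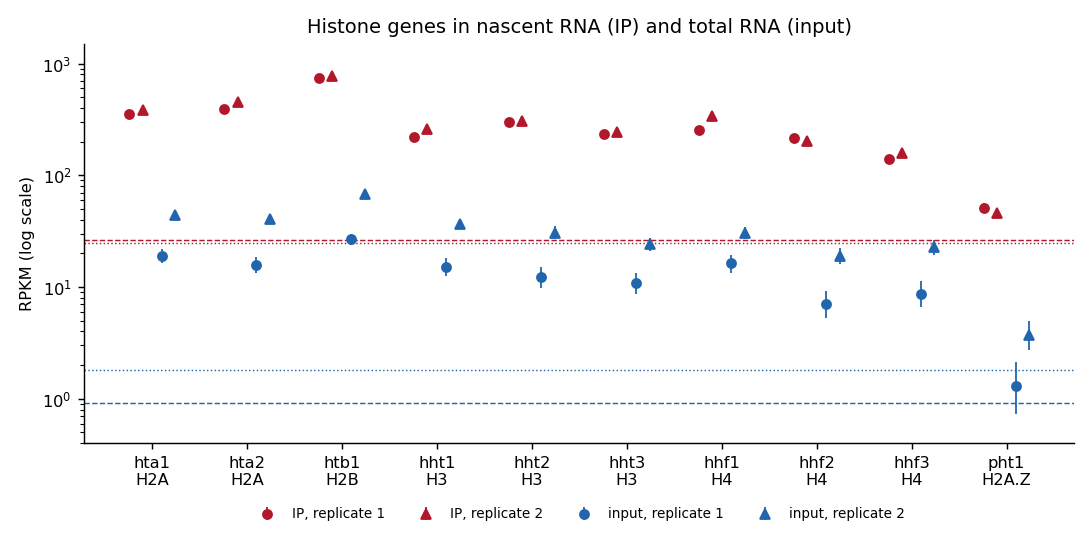
RPKM on a log axis for each histone gene in the 2 IP libraries (red) and, to their right, the 2 input libraries (blue), with 95% Poisson intervals for counting error; dashed and dotted lines are the protein-coding medians of replicates 1 and 2. All IP values of a gene lie above its input values, and *htb1* is highest at 743 and 776 RPKM in IP. Input replicate 2 lies above input replicate 1 for every gene shown and for the protein-coding median.

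By mean, the order in IP was *htb1* (760 ± 23.3 RPKM; SD, n = 2), *hta2* (421 ± 40.3), *hta1* (370 ± 25.6), *hht2* (303 ± 6.50), *hhf1* (297 ± 58.1), *hht1* (240 ± 28.7), *hht3* (239 ± 7.47), *hhf2* (211 ± 9.44), *hhf3* (149 ± 13.2) and *pht1* (48.5 ± 4.09). Neighbours in this order whose replicates overlapped were *hht2* and *hhf1*, *hhf1* and *hht1*, and *hht1* and *hht3*. In input the order was *htb1* (47.1 ± 28.9 RPKM), *hta1* (31.4 ± 17.4), *hta2* (28.4 ± 17.8), *hht1* (26.0 ± 15.2), *hhf1* (23.4 ± 10.1), *hht2* (21.5 ± 13.0), *hht3* (17.5 ± 9.49), *hhf3* (15.8 ± 9.96), *hhf2* (13.1 ± 8.46) and *pht1* (2.50 ± 1.69), and every pair of neighbours overlapped except *hhf2* and *pht1*.

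All core genes stood high among protein-coding genes in both kinds of library. Their percentiles were 93.3 to 99.6 and 94.1 to 99.6 in IP, against 91.4 to 96.6 and 93.2 to 97.3 in input. For *pht1* the percentiles were 77.7 and 76.0 in IP, against 62.4 and 73.5 in input. The protein-coding median was 26.1 and 24.6 RPKM in IP, against 0.925 and 1.80 RPKM in input.

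Replicates differed far more in input than in IP. For the core genes, replicate 2 was 0.939 to 1.32 times replicate 1 in IP (median 1.10), with the largest fold at *hhf1*, against 1.88 to 2.69 times in input (median 2.50). The tRNA share was also lower in input replicate 2, and its part in this difference was not tested. Every one of the 10 genes was higher in input replicate 2. Over 4813 protein-coding genes with a read in both input libraries the median was 1.95 times, so a rise was not particular to histone genes. In IP the median was 0.942 times, over 5036 genes.

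Summed over copies, the nascent output of the 4 core histones was similar although the number of genes differs. H2A, from 2 genes, had 745 and 838 RPKM in IP, against 35.0 and 84.7 RPKM in input. H2B, from 1 gene, had the *htb1* values, and H3, from 3 genes, had 752 and 812 RPKM in IP, against 38.3 and 91.7 RPKM in input. H4, also from 3 genes, had 613 and 701 RPKM in IP, against 32.1 and 72.5 RPKM in input.

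Set against H2B in the same library, H2A was 1.00 and 1.08 in IP, against 1.31 and 1.25 in input. H3 was 1.01 and 1.05 times H2B in IP, against 1.43 and 1.36 times in input, and H4 was 0.825 and 0.903 times H2B in IP, against 1.20 and 1.07 times in input. So over whole annotations the nascent signal of the single H2B gene was close to the sums of H2A and of H3. In total RNA it was lower than each of the 3 other sums in both replicates, by least for H4 in replicate 2. Over the CDS alone this order did not hold for H4. There *htb1* had 29.2 and 95.1 RPKM in input. *hhf1* had 13.1 and 25.45, *hhf2* 3.53 and 17.0 and *hhf3* 7.76 and 20.9 RPKM, together below *htb1*. The H2A and H3 sums stayed above it. Counted per unique window, the sums over H2B in IP were 1.07 for H2A, 1.26 for H3 and 0.9501 for H4, so the near-equality of H3 and H2B depends on whether lost reads are allowed for.

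**Figure D2:**
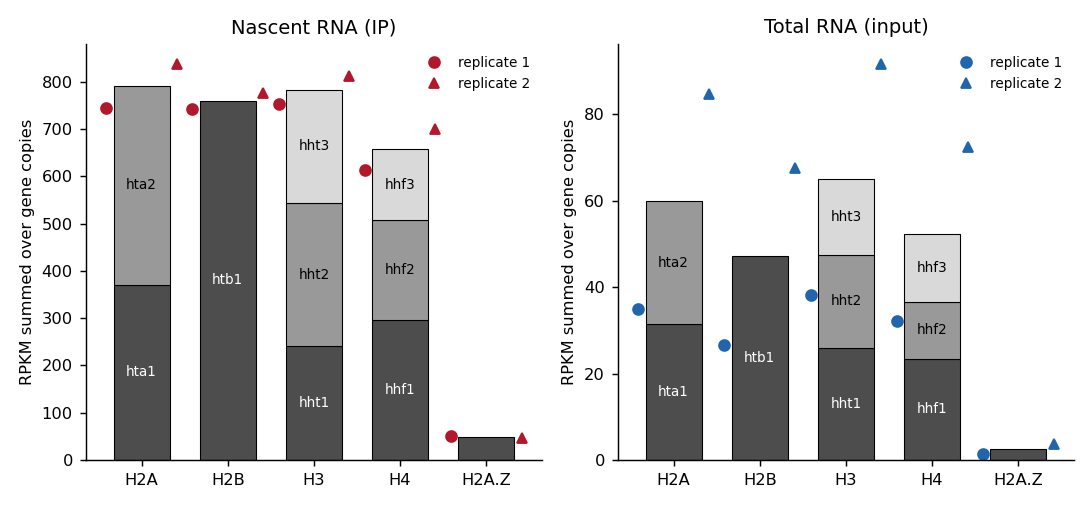
RPKM summed over the gene copies of each histone in IP (left) and input (right); stacked bars are means of 2 libraries split by gene, and symbols are the sums of replicates 1 and 2. In IP the sums of H2A, H2B, H3 and H4 lie between 613 and 838 RPKM in either replicate, while H2A.Z stays at 45.6 to 51.4 RPKM.

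Whether the histone genes had more nascent than total RNA signal was tested by limma on log2(RPKM + 1) over 8912 units with a read in any library. All 10 genes were called higher in IP, as were 92.8% of all units, so the count itself says nothing particular about histone genes. The change was largest for *htb1* (4.13 ± 0.564, log2 ± SE, limma adjusted p = 0.00285) and *hhf2* (4.06 ± 0.553, adjusted p = 0.00282), followed by *hta2* (3.99), *pht1* (3.91), *hht2* (3.89), *hht3* (3.80), *hhf1* (3.66) and *hta1* (3.63). It was smallest for *hhf3* (3.30 ± 0.549, adjusted p = 0.00526) and *hht1* (3.28 ± 0.539, adjusted p = 0.00507). The median over the 10 genes was 3.84 and that over protein-coding genes 3.28. As plain ratios of mean RPKM, IP over input, these were 9.25 for *hht1*, 9.46 for *hhf3*, 11.8 for *hta1*, 12.7 for *hhf1*, 13.6 for *hht3*, 14.1 for *hht2*, 14.8 for *hta2*, 16.1 for *htb1*, 16.2 for *hhf2* and 19.4 for *pht1*. Without IP replicate 1 or 2, where the lone IP library is assumed to vary like the input, 2 and 1 of the 10 genes passed, with adjusted p up to 0.0724 and 0.0823, beside 85.3% and 85% of all units.

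Where the histone genes stand relative to other genes depended on the scale. The direction against input turned with the scaling: the protein-coding median change was 3.28 under the authors' totals, but −0.23 after each library was centred on its protein-coding median, −0.05 after quantile normalization, 0.07 with edgeR and TMM, and −0.01 with DESeq2. After centring, *htb1* (0.62) and *hhf2* (0.55) were still called higher, beside 9.11% of all units, and with the replicate number as a block *hta2* and *pht1* were called too, beside 10.4% of all units. Quantile normalization called 7 of the 10 higher, beside 10.3% of units. With edgeR and TMM none was called higher (14.7% of units were) and *hht1* (−0.78, adjusted p = 0.00351) and *hhf3* (−0.75, adjusted p = 0.00449) were called lower, beside 14.7% of units. DESeq2 called the same 2 genes lower, beside 12.7% of units, and none higher, beside 8.1%. At an unadjusted p of 0.05 both tools had 0 of the 10 higher and 3 lower.

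On the log2(RPKM + 1) scale all 10 genes lay above the protein-coding median, but *hht1*, *hhf3*, *hta1* and *hhf1* by less than their SE. Fewer did so in other settings: 8 without IP replicate 2 or without input replicate 1, and 9 among units of at least 1 RPKM. With a pseudocount of 0.1 RPKM 4 did so, and with edgeR or DESeq2 1 (*pht1*). Most genes had input levels near the pseudocount of 1 RPKM, and their change is understated on the log2(RPKM + 1) scale. Better-read genes were therefore compared: 989 other protein-coding genes with at least 50 reads in each input library, a cut that all core genes passed and *pht1* did not. The cut has no upper bound, and it selects on input, the denominator of the change. On the main scale the core genes stood at percentiles 59.2 (*hht1*) and 60.5 (*hhf3*) up to 92.0 (*hhf2*) and 93.3 (*htb1*) of this set, whose median change was 3.14. With edgeR and TMM they stood at percentiles 48.3 (*hht1*) and 49.5 (*hhf3*) up to 85.8 (*hhf2*) and 86.5 (*htb1*), with a median change of −0.73 in the set. Over all protein-coding genes that median was 0.07, and the same genes stood at percentiles 14.3 (*hht1*), 14.9 (*hhf3*), 47.8 (*hhf2*) and 49.0 (*htb1*). The higher percentiles thus belong to the selected set. On both scales *hht1* and *hhf3* were the lowest and *htb1* and *hhf2* the highest of the 9. This set was chosen after the data were seen.

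**Figure D3:**
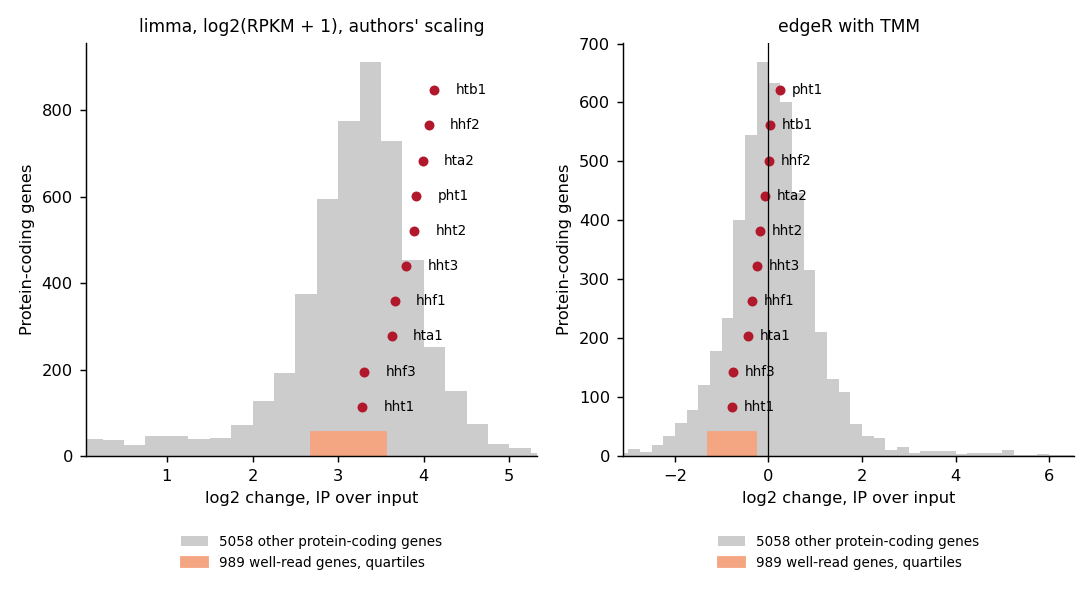
Histograms of the log2 change, IP over input, of the other protein-coding genes tested, with the histone genes as red points (their height only separates the names) and the quartiles of 989 well-read genes as an orange bar; left, limma on log2(RPKM + 1), right, edgeR with TMM. The histone genes lie at 3.28 to 4.13 on the left and −0.78 to 0.25 on the right, with *hht1* and *hhf3* lowest on both; the outermost genes fall beyond the axes.

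The copies of 1 histone did not contribute equally, and their order depended on which bases were counted. Of the summed H3 density over whole annotations in IP, *hht2* gave 38.8% ± 1.29 (SD, n = 2), *hht1* 30.7% ± 2.00 and *hht3* 30.5% ± 0.711. In input *hht1* led with 39.9% ± 0.279, followed by *hht2* with 32.9% ± 0.968 and *hht3* with 27.3% ± 1.25. Per unique window the 3 copies were near even in IP, at 34.5% ± 1.26 for *hht2*, 34.0% ± 2.10 for *hht1* and 31.6% ± 0.843 for *hht3*, and the ranges of *hht1* and *hht2* overlapped.

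Reads over the CDS alone gave *hht2* 48.2%, *hht3* 31.5% and *hht1* 20.4% of H3 in IP. Reads outside the CDS, where all windows are unique, gave the opposite order at the ends: *hht1* 42.4% ± 1.84, *hht3* 30.5% ± 2.72 and *hht2* 27.1% ± 0.882 in IP, against 61.9% ± 3.75, 26.9% ± 3.28 and 11.3% ± 0.470 in input. *hht1* is the copy with the least unique CDS, and its share was the lowest of the 3 over the CDS and the highest outside it, in all 4 libraries.

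For H4, *hhf3* was the lowest copy in IP under each count. *hhf1* gave 44.9% ± 4.61, *hhf2* 32.3% ± 4.48 and *hhf3* 22.7% ± 0.131 over whole annotations in IP, against 46.5% ± 6.0, 24.2% ± 2.97 and 29.3% ± 3.02 in input. *hhf2* was thus above *hhf3* in nascent RNA, and in input their order was the other way but within counting error, with 55 and 58 reads in replicate 1 and 160 and 164 in replicate 2. Over the CDS alone the IP replicates disagreed, with 35.3% for *hhf1* and 41.4% for *hhf2* in replicate 1 but 41.3% and 34.7% in replicate 2, and outside it *hhf1* gave 49.2% ± 4.56. For H2A, *hta2* gave 53.2% and *hta1* 46.8% (± 0.661) in IP, against 46.8% and 53.2% (± 2.16) in input, and outside the CDS they were even in IP (49.9% and 50.1%, ± 0.512).

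**Figure D4:**
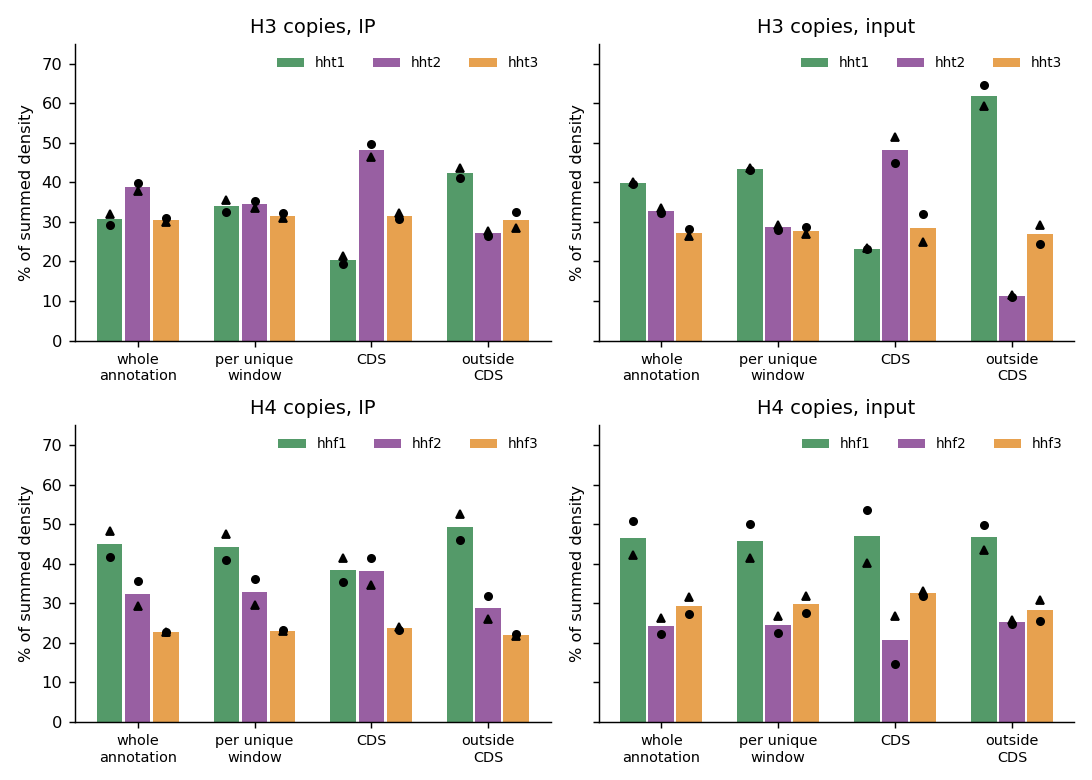
Share of each copy in the summed density of H3 (top) and H4 (bottom), in IP (left) and input (right), counted over the whole annotation, per unique 50-nt window, over the CDS and outside it; bars are means of 2 libraries, circles replicate 1 and triangles replicate 2. *hht1* gives 20.4% of H3 over the CDS but 42.4% outside it in IP, while *hhf3* is the lowest H4 copy in IP under each count.

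The density of nascent reads over the CDS was set against that outside it within each gene. The reference was protein-coding genes with 1 CDS segment, at least 50 reads in each part and at least 200 nt outside the CDS. Histone genes that met this rule were not taken out. The median ratio of the reference was 1.62 (1614 genes) and 1.59 (1545 genes) in IP. *hht1* had 0.582 and 0.545, and *hhf1* 0.813 and 0.747; these were the only 2 members below 1 in IP. Counted per unique CDS window, *hht1* had 1.42 and 1.33, within the quartiles of the reference (1.22 to 2.17 in IP replicate 1). *hhf1* had 0.995 and 0.913 and stayed below them. This contrast holds for 50-nt windows only. With shorter windows the unique CDS share was lower, at 42.2% for *hhf1* and 25% for *hht1*. The read length left after adapter trimming is not stated, and the ratios were not computed for shorter windows.

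*hht3*, the other H3 copy with little unique CDS, had 1.17 and 1.26 over all CDS bases and 2.19 and 2.36 per unique window in IP. *pht1*, unique throughout, had 2.71 and 2.21 in IP, and *hht2* 2.31 and 1.87. In input *hht2* reached 6.17 and 5.10, from 11 and 35 reads outside its CDS, so its total RNA reads lay more within the CDS than its nascent reads in both replicates. *hhf2* moved the other way, with 1.38 and 1.27 in IP, against 0.387 and 0.838 in input, from only 10 and 52 input reads over its CDS. Per unique CDS window it had 1.96 and 1.80 in IP, against 0.550 and 1.19 in input. The median of the reference, taken by the same rule, was 1.59 (77 genes) and 1.92 (196 genes) in input.

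**Figure D5:**
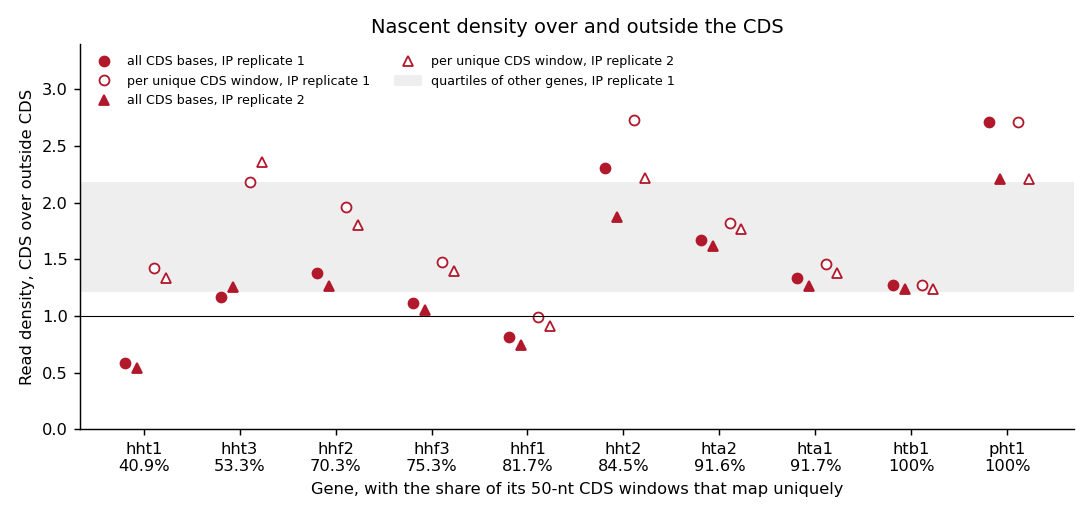
Ratio of read density over the CDS to that outside it in the 2 IP libraries, over all CDS bases (filled) and per unique CDS window (open). Genes are ordered by the share of CDS windows that map uniquely. The grey band, labelled other genes, gives the quartiles of the reference genes in IP replicate 1, histone genes included. *hht1*, with 40.9% unique windows, lies at 0.582 and 0.545 over all bases and at 1.42 and 1.33 per unique window.

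Partners of a head-to-head pair share their upstream region, and their nascent levels were compared as log2 ratios within a library. For *hht1* over *hhf1* the ratio was −0.22 (95% counting interval −0.33 to −0.11) and −0.37 (−0.47 to −0.28) in IP, against −0.10 (−0.48 to 0.28) and 0.26 (0.01 to 0.52) in input. For *hht2* over *hhf2* it was 0.46 (0.35 to 0.56) and 0.59 (0.49 to 0.70) in IP, against 0.80 (0.29 to 1.31) and 0.69 (0.39 to 0.99) in input. Over whole annotations the H4 partner was thus higher in the first pair and the H3 partner in the second, in nascent RNA of both replicates. Neither order held under each way of counting, as given below, and the counting intervals do not cover reads lost to mapping.

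For *hht3* over *hhf3* the ratio was 0.74 (0.61 to 0.87) and 0.62 (0.50 to 0.75) in IP, against 0.31 (−0.19 to 0.81) and 0.09 (−0.22 to 0.39) in input. For *hta1* over *htb1* it was −1.08 (−1.14 to −1.01) and −1.0 (−1.06 to −0.94) in IP, against −0.48 (−0.75 to −0.21) and −0.63 (−0.79 to −0.46) in input. The *hta1*-*htb1* pair was the most unequal of the 4 in IP, and it was less unequal in input in both replicates. There *hht2*-*hhf2* had the ratio of largest size, but its counting intervals overlapped in size with those of *hta1*-*htb1*.

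Allowing for lost reads changed the H3-H4 pairs. Per unique window the mean ratio in IP was 0.03 ± 0.111 for *hht1* over *hhf1* (−0.30 ± 0.111 over whole annotations), 0.48 for *hht2* over *hhf2* (0.52 ± 0.0955) and 0.86 for *hht3* over *hhf3* (0.68 ± 0.0826). Outside the CDS, *hht2* and *hhf2* were level in IP (0.03 ± 0.207) but apart in input (−1.26 ± 0.288). The size of the log2 ratio of mean IP levels ran from 0.305 to 1.04 over the 4 histone pairs. Over 695 other divergent protein-coding pairs its median was 1.10 (quartiles 0.520 to 2.06). Those pairs had starts within 500 nt and a mean above 1 RPKM in IP for both partners. In the authors' annotation, which differs from RefSeq in its gene starts, *hht2* and *hhf2* share 3 nt and *hht3* and *hhf3* share 1 nt, on opposite strands.

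Noncoding antisense units were annotated at 4 of the 10 genes, and all were weak beside the gene. A unit counted when an annotated noncoding RNA, a noncoding unit of a later annotation (nc-TU) or an XUT (a transcript that accumulates without the cytoplasmic exonuclease Exo2) overlapped the gene by at least 50 nt on the other strand. Protein-coding genes on the other strand were not counted. Of these, *sec5* overlaps *htb1* by 258 nt and had, over its whole length, 29.5 and 28.3 RPKM in IP, against 0.624 and 1.62 RPKM in input. Over *hta1*, hta1-antisense-1 (SPNCRNA.1194, III:1410745-1412364) spans the whole gene and had 13.1 and 11.97 RPKM in IP, against 0.340 and 0.943 RPKM in input. Over *hhf3*, hhf3-antisense-1 (SPNCRNA.1611, II:3529599-3530978) had 1.22 and 1.32 RPKM in IP, against 0 and 0.0738 RPKM in input.

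At *htb1* the units were novelncTU_458 (6.09 and 6.36 RPKM in IP, against 0.680 and 0.209 in input) and novelncTU_459 (4.72 and 10.1 RPKM in IP, against 0 and 0.487 in input). At *hht3* they were XUT1200 (11.7 and 8.46 RPKM in IP) and novelncTU_186 (3.44 and 3.66 RPKM in IP), both without a read in input. As a share of the gene's own mean IP level, the 6 gene-unit pairs ran from 0.819% to 4.23% with a median of 1.23%. Over 2702 such pairs in the genome, at 36.2% of protein-coding genes, the median was 16.2% (quartiles 5.97% to 47.7%). A share is low where the gene itself is high, and the core genes are among the highest.

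On the same strand, 2 annotated units shared bases with a histone gene. SPNCRNA.1432 (II:1363471-1364267) overlaps the 3′ end of *hhf2* by 79 nt and had 103 and 105 RPKM in IP, against 0.691 and 2.94 RPKM in input. Its IP level was 47.2% and 51.2% of that of *hhf2*, while in input it had 5 and 23 reads. The other, hhf3-antisense-1, shares 59 nt with *hht3*. Reads in shared bases may be counted in both units, so the values of *hhf2* and SPNCRNA.1432 are uncertain to that extent.

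Most genes that regulate, carry and modify histones had levels below those of the histone genes. A list of 34 was examined, and all 34 were tested. The 6 regulators of histone genes, namely *ams2*, *teb1* and the HIRA complex genes *hip1*, *slm9*, *hip3* and *hip4*, had mean levels of 19.0 to 23.8 RPKM in IP, against 0.904 to 1.37 RPKM in input. The 14 genes of chaperones and deposition factors had 5.58 to 135 RPKM in IP (median 23.3), against 0.129 to 18.9 RPKM in input, with the nucleosome assembly protein gene *nap1* highest at 143 and 128 RPKM in IP, against 12.4 and 25.5 RPKM in input. *cnp1*, which encodes the centromeric H3 variant, had 14.3 and 14.2 RPKM in IP, against 0.611 and 1.44 RPKM in input. The 13 histone modifier genes had 8.20 to 48.3 RPKM in IP (median 20.9), against 0.455 to 3.24 RPKM in input. By mean, no gene of the list reached the IP level of *hhf3*, although *nap1* was above *hhf3* in IP replicate 1 and in both input libraries, and 3 of them (*nap1*, *nap2* and *pob3*) had a mean above that of *pht1*.

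All 34 were called higher in IP by limma, as were 92.8% of all units, with a median change of 3.27 beside 3.28 over protein-coding genes. The 3 smallest changes were those of *scm3* (2.54; chaperone of the centromeric variant), *sir2* (2.63; histone deacetylase) and *pcf1* (2.64; CAF-1 subunit). *scm3* had 5.03 and 6.13 RPKM in IP, against 0.0457 and 0.211 in input. *sir2* had 9.33 and 7.07 RPKM in IP, against 0.375 and 0.578 in input, and *pcf1* had 11.4 and 11.5 RPKM in IP, against 0.613 and 1.49 in input. These 3 are low genes, whose change the log2(RPKM + 1) scale understates. With edgeR and TMM the change of *scm3* was 1.39, the largest of the list, and that of *sir2* was 0.072, beside a list median of 0.047. The change of *pcf1*, −0.58, stayed among the lowest of the list.

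The 3 largest were those of *hos2* (3.82; histone deacetylase), *pob3* (3.81; FACT subunit) and *set1* (3.74; H3 lysine 4 methyltransferase). *hos2* had 25.9 and 24.3 RPKM in IP, against 0.540 and 1.22 in input. *pob3* had 53.1 and 46.5 RPKM in IP, against 1.93 and 3.47 in input, and *set1* had 34.2 and 35.2 RPKM in IP, against 1.18 and 2.31 in input. After centring, limma called 0 of the 34 higher, also at an unadjusted p of 0.05, and 11 lower (54.6% of all units were lower). With edgeR and TMM 4 were called higher and 4 lower, beside 14.7% of all units in each direction, and with DESeq2 1 higher and 4 lower, beside 8.1% and 12.7%.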

How the data were processed

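Libraries were prepared from 2 biological replicates of *rpb3-flag* cells. The authors mapped 50-nt reads uniquely with Bowtie (up to 2 mismatches) to ASM294v2.30 and deposited 1 table of signal values: strand-specific counts for each annotated feature, normalized by library. How a read over several features was counted is not given in the sources used here. All values (100%, within 0.001) were whole multiples of the smallest value, so whole reads were recovered. RPKM was computed with 1 factor, which gave IP replicate 1, where a read is worth most, the smallest library total stated in the study, 7100000 reads, and absolute levels rest on that anchor. Of 19343 table entries, CDS segments and 28 repeated pseudogene entries were set aside, leaving 9111 units.

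IP and input were compared by limma 3.58.1 with a trend on log2(RPKM + 1), adjusted by Benjamini-Hochberg over 8912 units at 0.05; such folds understate the change of low genes. edgeR 4.0.16 (quasi-likelihood) and DESeq2 1.42.0 were run on recovered reads (R 4.3.3, Python 3.11.15), and each tool was tested on simulated data. The submitters' notes say that input came from the same biological samples as IP, so numbers pair libraries; the replicate differences of IP and input correlated across genes at r = 0.154 over 5129 protein-coding genes and 0.284 over 1547 with at least 100 input reads (genes are not independent).

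Sequences were read from the RefSeq genome ASM294v3 by its own annotation, without converting coordinates; 5107 of 5129 genes, all histone genes included, matched by locus tag, and 97.6% of these had the same CDS length in both. Density outside the CDS is gene reads minus CDS reads over the remaining length. All 10 histone genes, every unit overlapping them by the stated rules, 3 highest and 3 lowest changes of the regulator list, and the nearest profiles were named; names outside these rules were picked with values in view. The genes, lists and tests were chosen with earlier results of these data known.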

Additional observations from a re-analysis of the deposited data

How the results depend on the processing

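Of 304 recomputed values, 33 from alternatives added after the data were seen, 185 kept their direction and side of the threshold or stayed within 1 SD or 1.5 times, 34 single-gene calls were lost, 61 values moved and 24 changed sign; the cause was not tested unless named. The count of histone genes called higher, 10, was 2 after centring on the protein-coding median, 4 with the replicate block and centring, 0 with edgeR and TMM, 0 with DESeq2 and 1 to 10 when 1 library was left out; the count called lower, 0, was 2 with either of those tools. For the regulator list, 34 became 0 after centring, with or without the block, 0 after quantile normalization, 4 with edgeR and TMM and 1 with DESeq2. The median change of the 10 genes, 3.84, was 0.33 after centring, with or without the block, 1.19 after quantile normalization, −0.20 with edgeR and TMM and −0.26 with DESeq2. Without centring the block changed none of the calls of the 10 histone genes and 34 listed genes.

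Changes below 0 were those of *hht1* (−0.23) and *hhf3* (−0.21) after centring, with or without the block. With edgeR and TMM they were *hht1* −0.78, *hhf3* −0.75, *hta1* −0.43, *hhf1* −0.36, *hht3* −0.23, *hht2* −0.17 and *hta2* −0.083. With DESeq2 they were *hht1* −0.83, *hhf3* −0.79, *hta1* −0.49, *hhf1* −0.42, *hht3* −0.29, *hht2* −0.22, *hta2* −0.13, *hhf2* −0.023 and *htb1* −0.016.

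The share of *hht2* in H3 was 48.2% over the CDS, 27.1% outside it, 34.5% per unique window and 32.9% in input; *hhf1* gave 38.3% of H4 over the CDS; *hta2* gave 55.8% of H2A over the CDS, 49.9% outside it and 46.8% in input. The log2 ratio of *hht1* over *hhf1* was −0.57 over the CDS, −0.10 outside it, 0.028 per unique window and 0.083 in input. That of *hht2* over *hhf2* was 0.69 over the CDS, 0.033 outside it and 0.74 in input, that of *hht3* over *hhf3* 0.59 outside the CDS, 0.86 per unique window and 0.20 in input, and that of *hta1* over *htb1* −0.55 in input. The median level percentile, 96.7 in IP, was 95.8 over the CDS and 94.9 in input. Sums over H2B were, for H2A, 1.10 over the CDS, 0.940 outside it and 1.28 in input; for H3, 0.942 over the CDS, 1.26 per unique window and 1.40 in input; and for H4, 0.743 over the CDS, 0.931 outside it, 0.9501 per unique window and 1.14 in input.

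Depth limits input most: *pht1* had 15 and 46 reads there and *hhf2* 55 and 160. Values per unique window assume full-length 50-nt reads and even density.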

Other observations

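The protein-coding genes whose 4 values of log2(RPKM + 1) lay closest to the median of the 10 histone genes (244 and 283 RPKM in IP, against 13.7 and 30.7 RPKM in input) were *aru1* (arginase; 275 and 253 RPKM in IP, against 12.9 and 31.1 in input), *tif11* (translation initiation factor; 232 and 242 in IP, against 14.3 and 31.6 in input), *lys4*, *gar2* (nucleolar protein) and *anc1* (ADP/ATP carrier), at Euclidean distances of 0.247 to 0.360. Closest to *hht2* were SPCC1322.10, *anc1* and *aru1*, at 0.281 to 0.315, and closest to *hhf2* were SPBC16H5.08c, *bfr1* and *pvg1*, at 0.112 to 0.302. With 4 libraries such likeness is one of level in 2 kinds of RNA and no more.

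Units that start within 300 nt past a histone gene's 3′ end on the same strand, looked up after the data were seen, had nascent signal with almost none in input. XUT0093 (III:1410563-1410958), 185 nt past *hta1*, had 65.8 and 47.2 RPKM in IP, against 0 and 0.257 RPKM in input. Past *hht3*, rav1-antisense-1 (II:3526856-3528695, gap 104 nt) had 34.8 and 35.8 RPKM in IP, against 0.180 and 0.553 RPKM in input, and XUT0387 (gap 153 nt), which overlaps it, had 32.6 and 33.3 RPKM in IP, against 0.192 and 0.533 RPKM in input. XUT0093 and rav1-antisense-1 were thus above the protein-coding median in IP and below it in input.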
